A study of Homo sapiens with 6 samples.

Results

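The miR-221 and miR-222 cluster was examined in small RNA libraries of extracellular vesicles (EVs) by 3 of its mature miRNAs, hsa-miR-221-3p, hsa-miR-222-3p and hsa-miR-221-5p. They were taken by name and not by a threshold on their values, but earlier results of these data were known when they were chosen. All 3 were found among the 832 miRNAs of the deposited table. The EVs came from MDA-MB-231, a human triple-negative breast cancer line of mesenchymal character. One group was EVs of the unmodified line, labelled WT (231 EV, n = 3), and the other was EVs of the same line with ACO1 knockdown (231 ACO1KD EV, n = 3). ACO1 is an iron-responsive RNA binding protein, and the comparison asks which miRNAs reach EVs in a different amount when it is reduced. Cells of both groups were grown in medium with serum, and EVs were pelleted by ultracentrifugation from EV-free medium. The sources used here do not say how ACO1 was knocked down in these cells or whether the line is 1 clone, and nothing in the labels says whether replicates were separate cultures, so that p-values measure the spread between these libraries only. In the main edgeR fit that spread is an estimate shared by all miRNAs, not the spread of each miRNA alone. Libraries of this kind hold no ACO1 mRNA, so the knockdown could not be checked in them.

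Both hairpins of the cluster are cut from one primary transcript, and each gives a 3p arm, which is the main guide strand loaded into Argonaute, and a 5p arm, which is mostly the discarded passenger strand. The guide strands miR-221-3p and miR-222-3p share a seed, the bases at the 5′ end that pair with target mRNAs, and therefore many targets. Known targets include CDKN1B, the cell cycle inhibitor p27, the receptor KIT and ESR1, the oestrogen receptor. High miR-221 and miR-222 is known as a feature of basal-like and mesenchymal breast cancer cells.

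GENCODE release 29 places MIR221 (ENSG00000207870.1) at chrX:45746157-45746266 and MIR222 (ENSG00000207725.3) at chrX:45747015-45747124 of GRCh38, both on the minus strand. Both lie in intron 1 of the transcript of MIR222HG (ENSG00000270069.1) that has 2 exons, with MIR222 upstream in the direction of transcription and 748 bases between the hairpins. The hairpins from RefSeq on GRCh38.p14, each of 110 bases, are shown to place the arms, with mature sequences listed by RefSeq in capitals.

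MIR221: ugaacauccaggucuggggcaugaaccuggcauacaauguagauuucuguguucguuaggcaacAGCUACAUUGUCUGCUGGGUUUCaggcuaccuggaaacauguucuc
MIR222: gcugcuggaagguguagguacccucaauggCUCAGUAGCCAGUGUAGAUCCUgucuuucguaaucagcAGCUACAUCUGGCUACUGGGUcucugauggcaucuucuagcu

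In MIR221 the 3p arm takes bases 65 to 87, and in MIR222 the 5p arm takes bases 31 to 52 and the 3p arm bases 69 to 89. The mature strands are shown next with the seed, bases 2 to 8, in capitals, because the seed groups the guide strands together and sets the passenger strand apart. The mature sequence of hsa-miR-221-5p is not shown.

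hsa-miR-221-3p: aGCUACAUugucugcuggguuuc
hsa-miR-222-3p: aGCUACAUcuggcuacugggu
hsa-miR-222-5p: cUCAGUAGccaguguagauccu

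The seed GCUACAU was held by 2 of 2370 mature miRNA names of RefSeq, and these are miR-221-3p and miR-222-3p. Their first 8 bases are the same, and over the shared 21 bases 11 positions are identical, so that the remaining bases tell reads of the guide strands apart. A pairing partner of this seed is shown from the mRNA of CDKN1B, where a search of the principal transcript for ATGTAGC, the complement of the seed on the mRNA strand, found 2 matches. Both are in exon 3 of 3, in the 3′ UTR, on the plus strand of GRCh38, with the match in capitals and an A after it. mRNAs were not measured in these libraries.

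Match 1, chr12:12721216-12721237: taaaagcgttggATGTAGCatt
Match 2, chr12:12721289-12721310: tttttaccttttATGTAGCaca

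The libraries differ in depth and in the share of their most abundant miRNA, and both bear on the values that follow. Total counts were 224948 to 230562 in 231 EV and 67873 to 175924 in 231 ACO1KD EV, the lowest being 231 ACO1KD EV replicate 2, where a single read was worth 14.7 TPM. TPM is here the count as a proportion of the library's counted miRNA reads, brought to the same sum in each library, with no length term. Such values are proportions, so fewer copies of a miRNA and more of others cannot be told apart. hsa-miR-21-5p, the most abundant miRNA, took 28.5% to 31.2% of the reads of 231 EV and 11.7% to 18.4% of those of 231 ACO1KD EV, with the highest knockdown share in replicate 3. Other miRNAs therefore have more TPM to share in the knockdown libraries. edgeR's TMM scaling, which sets libraries level on the bulk of miRNAs, gave a median log2 fold change of -0.03 over the 517 miRNAs tested, and library totals gave 0.32. hsa-miR-16-5p, an RT-qPCR reference of the study, was at -0.04 with TMM scaling (standard error 0.12, edgeR adjusted p = 0.914) and at 0.32 with library totals (edgeR adjusted p = 0.0436), and its TPM were higher in every knockdown library than in every 231 EV library. Levels are given as deposited TPM and, where the scaling matters, also as TMM-scaled CPM.

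The label of the line was set beside listed markers. The 6 listed for basal or mesenchymal breast cancer cells were miR-21-5p, miR-125b-5p, miR-100-5p, miR-146a-5p and both guide strands of the cluster. Their means ranged from 1295 TPM (miR-146a-5p) to 299864 TPM (miR-21-5p) in 231 EV and from 258 to 141141 TPM in 231 ACO1KD EV, with the same miRNAs at the ends. Of the epithelial or luminal miRNAs, the miR-200 family, miR-203a, miR-205, miR-375 and miR-429, all 8 found in the table had reads, and they summed to between 880 and 1022 TPM (231 EV) and between 634 and 998 TPM (231 ACO1KD EV). The highest of these, miR-205-5p, had a mean of 507 TPM in 231 EV and 331 TPM in 231 ACO1KD EV, in the latter above miR-146a-5p. A longer list of oncogenic or mesenchymal miRNAs, given below, was less clear-cut. In 231 EV its miR-9-5p (364 TPM), miR-10b-5p (268 TPM), miR-155-5p (72.2 TPM) and miR-31-5p (19 TPM) were below miR-205-5p, and its miR-22-3p and miR-138-5p were above. miRNAs of blood cells and liver were also present, with all 8 detected and none at 0. They summed to between 11702 and 12763 TPM (231 EV) and between 16050 and 18315 TPM (231 ACO1KD EV). Whether this bears on the results for the cluster was not tested.

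The guide strand miR-221-3p was the dominant product of the cluster and was lower in EVs of ACO1 knockdown cells. miR-222-3p was lower by a smaller amount that depended on how libraries were scaled. The passenger strand miR-221-5p was not shown to differ.

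In 231 EV replicates 1, 2 and 3, hsa-miR-221-3p had 3968, 4068 and 4346 reads, or 17640, 17644 and 19315 TPM. In 231 ACO1KD EV replicates 1, 2 and 3 it had 1711, 767 and 2703 reads, or 9726, 11301 and 17181 TPM. Every knockdown library was below every 231 EV library, but knockdown replicate 3 was close to them while replicates 1 and 2 were far below. It took 1.76%, 1.76% and 1.93% of the reads in 231 EV and 0.973%, 1.13% and 1.72% in 231 ACO1KD EV. The 95% Wilson interval of knockdown replicate 3, 1.66% to 1.78%, overlapped that of 231 EV replicate 1, 1.71% to 1.82%, and such intervals cover counting error only. By rank of read count it was at place 10 or 11 in each 231 EV library and at places 17, 16 and 12 in the knockdown libraries.

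The group means were 18200 ± 966 TPM for 231 EV and 12736 ± 3930 TPM for 231 ACO1KD EV (SD, n = 3 each). With TMM scaling they were 20641 ± 2042 CPM (SD, n = 3) and 11316 ± 3843 CPM (SD, n = 3), and the spread was larger in the knockdown group on both scales. The log2 fold change was -0.87 (standard error 0.13, 95% interval -1.13 to -0.60, adjusted p = 7.47e-09 by the edgeR quasi-likelihood fit, Benjamini-Hochberg), a 1.82-fold lower level. The standard error and p of this fit use a spread shared by all miRNAs, so they do not carry the wide spread of miR-221-3p in the knockdown group. edgeR's robust option gave the same fold change with an adjusted p of 0.0022. An exact permutation test of log2(TPM + 1), two-sided, gave p = 0.1, which is the smallest p that 3 libraries against 3 allow. With library totals in place of TMM the log2 fold change was -0.51, with an edgeR adjusted p of 0.00184. Without knockdown replicate 3 it was -1.17, the lowest value with 1 library left out.

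hsa-miR-222-3p had 393, 419 and 399 reads in 231 EV replicates 1, 2 and 3, or 1747, 1817 and 1773 TPM. In 231 ACO1KD EV it had 244, 98 and 281 reads, or 1387, 1444 and 1786 TPM. On this scale the groups overlapped, since knockdown replicate 3 lay among the 231 EV libraries and only replicates 1 and 2 were below. The group means were 1779 ± 35.5 TPM for 231 EV and 1539 ± 216 TPM for 231 ACO1KD EV (SD, n = 3 each). After TMM scaling the libraries had 1910, 2024 and 2111 CPM against 1251, 1206 and 1636 CPM, and the groups no longer overlapped.

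The log2 fold change of miR-222-3p was -0.56 (standard error 0.18, 95% interval -0.92 to -0.20, adjusted p = 0.0295 by the edgeR quasi-likelihood fit, Benjamini-Hochberg), a 1.47-fold lower level. An exact permutation test of log2(TPM + 1), two-sided, gave p = 0.3. With library totals the log2 fold change was -0.21 with an edgeR adjusted p of 0.538, so that the call rests on the scaling. The call was also lost in 5 of the 6 fits that left out 1 library, with edgeR adjusted p of 0.0837 to 0.153. It was kept without knockdown replicate 3, where the log2 fold change was -0.70.

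hsa-miR-221-5p, the passenger arm of the hairpin that yields miR-221-3p, had 62, 55 and 44 reads in 231 EV replicates 1, 2 and 3 and 38, 22 and 53 reads in 231 ACO1KD EV. These were 276, 239 and 196 TPM against 216, 324 and 337 TPM. The groups overlapped, with knockdown replicate 1 between the 231 EV libraries and replicates 2 and 3 above all of them. Counts this low leave wide intervals, and that of knockdown replicate 2 was 214 to 491 TPM (95% Wilson). The mean was 237 ± 40.1 TPM (SD, n = 3) against 292 ± 66.4 TPM (SD, n = 3). The log2 fold change was -0.06 (standard error 0.28, 95% interval -0.61 to 0.49, adjusted p = 0.937 by the edgeR quasi-likelihood fit, Benjamini-Hochberg), and its sign turned to 0.28 with library totals. An exact permutation test of log2(TPM + 1), two-sided, gave p = 0.3. The interval spans changes of about the size seen for miR-222-3p, so the passenger arm was not shown to stay level.

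**Figure D1:**
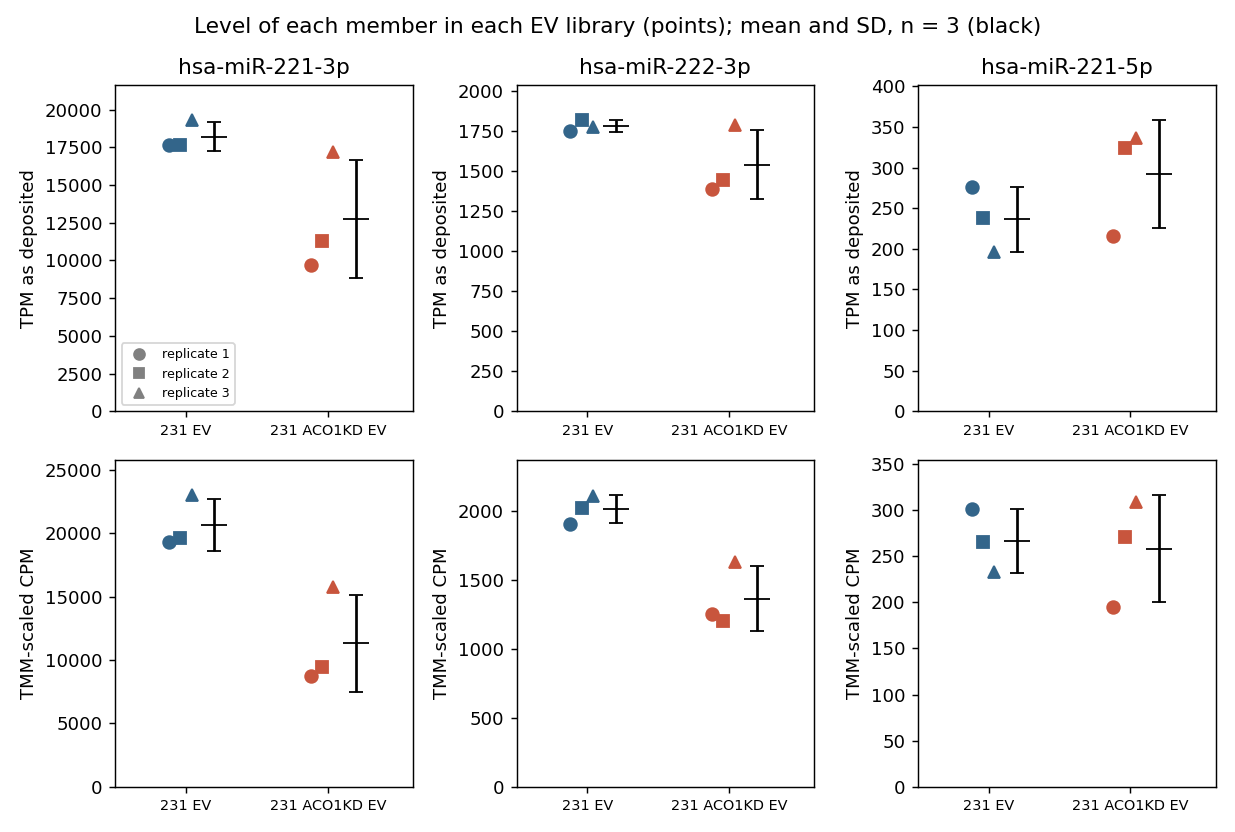
Level of the 3 members in each EV library, as deposited TPM (top) and TMM-scaled CPM (bottom), with the mean and SD of 3 libraries in black and each axis starting at 0. miR-221-3p is below every 231 EV library in all 3 knockdown libraries on both scales, miR-222-3p only after TMM scaling, and the groups of miR-221-5p overlap on both.

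With TMM scaling, 31 of the 517 miRNAs tested were lower (6%) and 13 were higher (2.51%) at an adjusted p under 0.05 in the edgeR fit (Benjamini-Hochberg). Of the 3 members, 2 were lower and none was higher. The share of lower calls was 20% (19 of 95) among miRNAs with a mean count of at least 100, to which both guide strands belong and the passenger strand does not. With library totals 13 of 517 were lower (2.51%), and of the members only miR-221-3p was. Groups did not overlap, with the knockdown libraries below, in 30 of the 517 miRNAs as TPM (5.8%) and in 66 after TMM scaling (12.8%). These held 1 member, miR-221-3p, on the first scale and both guide strands on the second.

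**Figure D2:**
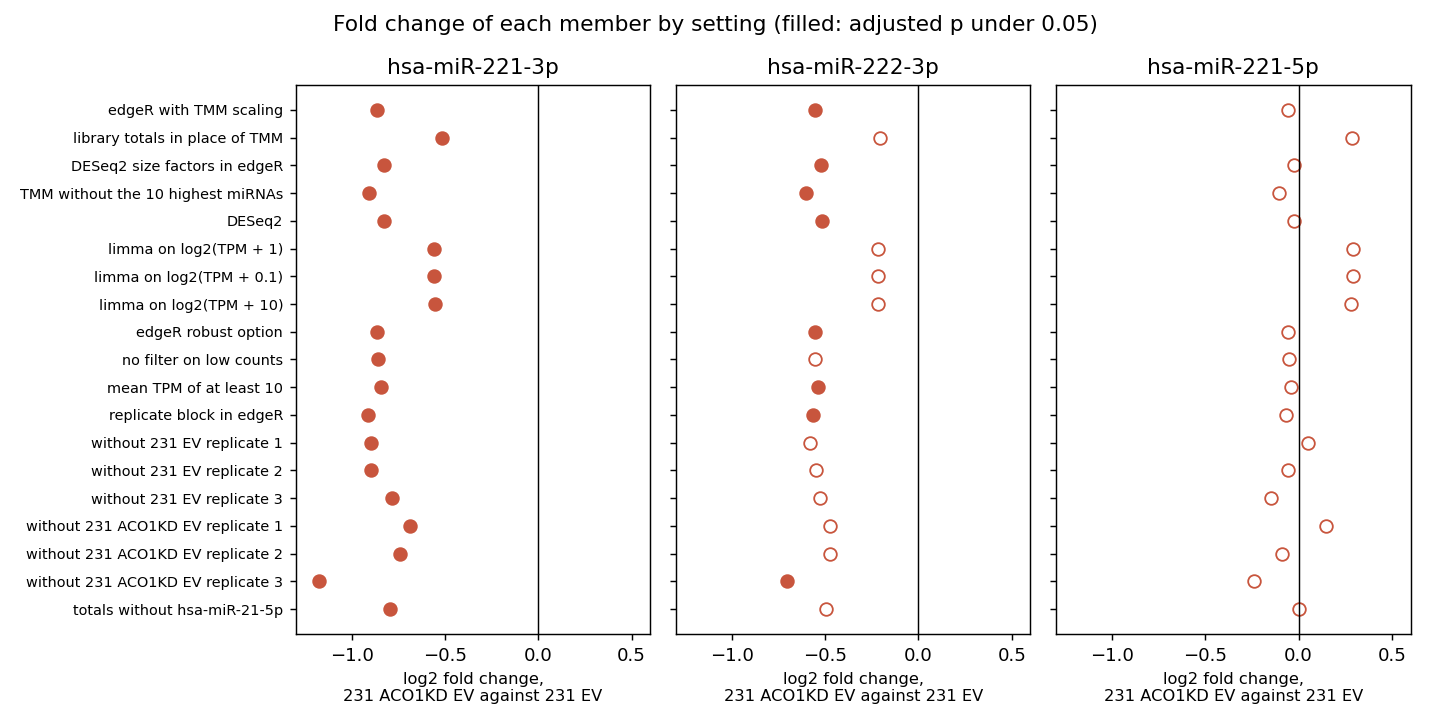
Log2 fold change of each member, 231 ACO1KD EV against 231 EV, by edgeR with TMM scaling and in each alternative setting, filled where the adjusted p was under 0.05. miR-221-3p is below 0 and filled throughout, miR-222-3p is below 0 throughout but open in 11 of 18 alternatives, and miR-221-5p lies on both sides of 0.

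Proportions between the products of the cluster do not depend on library scaling, because both counts come from the same library. Together the 3 members took 1.97%, 1.97% and 2.13% of the reads in 231 EV and 1.13%, 1.31% and 1.93% in 231 ACO1KD EV. Of these cluster reads miR-221-3p made up 89.6% to 90.7% in 231 EV and 85.9% to 89.0% in 231 ACO1KD EV. miR-222-3p made up 8.33% to 9.23% and 9.25% to 12.2%, and miR-221-5p 0.919% to 1.40% and 1.75% to 2.48%. miR-221-3p thus had a smaller share of the cluster in every knockdown library, and the other members a larger one. For miR-222-3p the groups barely parted, at 9.23% in 231 EV replicate 2 and 9.25% in knockdown replicate 3. The 3 shares of a library have a fixed sum, so they are not separate results.

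For the guide strands, each miR-222-3p read was accompanied by 10.1, 9.71 and 10.9 reads of miR-221-3p in 231 EV replicates 1, 2 and 3. In 231 ACO1KD EV these numbers were 7.01, 7.83 and 9.62. The groups did not overlap, but knockdown replicate 3 was next to 231 EV replicate 2. The log2 ratio was 3.35 on average in 231 EV and 3.01 in 231 ACO1KD EV, a difference of -0.34 (standard error 0.21, 95% interval -0.76 to 0.08, adjusted p = 0.215 from limma over 12 pairs of co-transcribed guide strands). A two-sided exact permutation test gave p = 0.1, again the smallest possible. The larger fold change of miR-221-3p than of miR-222-3p was therefore not shown by this test to be a difference between them. Without knockdown replicate 3 the difference was -0.47 with an adjusted p of 0.00746 from limma, so that this library decides the call. Among the 12 pairs, 2 passed an adjusted p of 0.05 in limma with a lower ratio (16.7%) and 1 with a higher one, miR-191-5p to miR-425-5p at 0.78, the largest change of the 12. The groups did not overlap in 3 pairs with a lower ratio (25%), the cluster's own pair included, and in 0 with a higher one. The pairs were written with no fixed order of abundance, so that lower and higher depend on which miRNA was written first, and 6 of them moved by as much as or more than the cluster's own pair, which is among the 6.

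Within MIR221, 64.0, 74.0 and 98.8 reads of the 3p arm were counted for each read of the 5p arm in 231 EV replicates 1, 2 and 3. In 231 ACO1KD EV there were 45.0, 34.9 and 51.0. Every knockdown library was below every 231 EV library, with knockdown replicate 3 again the nearest to them. As a share of the hairpin's reads the passenger strand was at 1.54%, 1.33% and 1.00% in 231 EV and at 2.17%, 2.79% and 1.92% in 231 ACO1KD EV, but the Wilson intervals of single libraries overlapped, as in 231 EV replicate 1 (1.20% to 1.97%) and knockdown replicate 3 (1.47% to 2.51%). The log2 ratio of the arms was 6.26 on average in 231 EV and 5.41 in 231 ACO1KD EV, a difference of -0.86 (standard error 0.34, 95% interval -1.62 to -0.09, unadjusted p = 0.0326 and adjusted p = 0.224 from limma over 55 hairpins). A two-sided exact permutation test gave p = 0.1. The difference thus did not pass the adjustment.

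The other hairpin was read in the same way with hsa-miR-222-5p, its passenger arm, which is not among the 3 members. It had 17, 23 and 16 reads in 231 EV replicates 1, 2 and 3 and 32, 6 and 28 reads in 231 ACO1KD EV. These were 75.6, 99.8 and 71.1 TPM against 182, 88.4 and 178 TPM, with knockdown replicate 2 inside the range of 231 EV. Between groups it differed by 0.60 on the log2 scale (standard error 0.36, 95% interval -0.10 to 1.31, adjusted p = 0.374 by the edgeR quasi-likelihood fit, Benjamini-Hochberg). Reads of the 3p arm for each read of the 5p arm were 23.1, 18.2 and 24.9 in 231 EV and 7.63, 16.3 and 10.0 in 231 ACO1KD EV, again without overlap. The difference of the log2 arm ratio was -1.04 (standard error 0.37, 95% interval -1.86 to -0.21, unadjusted p = 0.0194 and adjusted p = 0.217 from limma over the same 55 hairpins). A two-sided exact permutation test gave p = 0.1. In knockdown replicate 2 this ratio rests on 6 reads of the passenger arm.

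**Figure D3:**
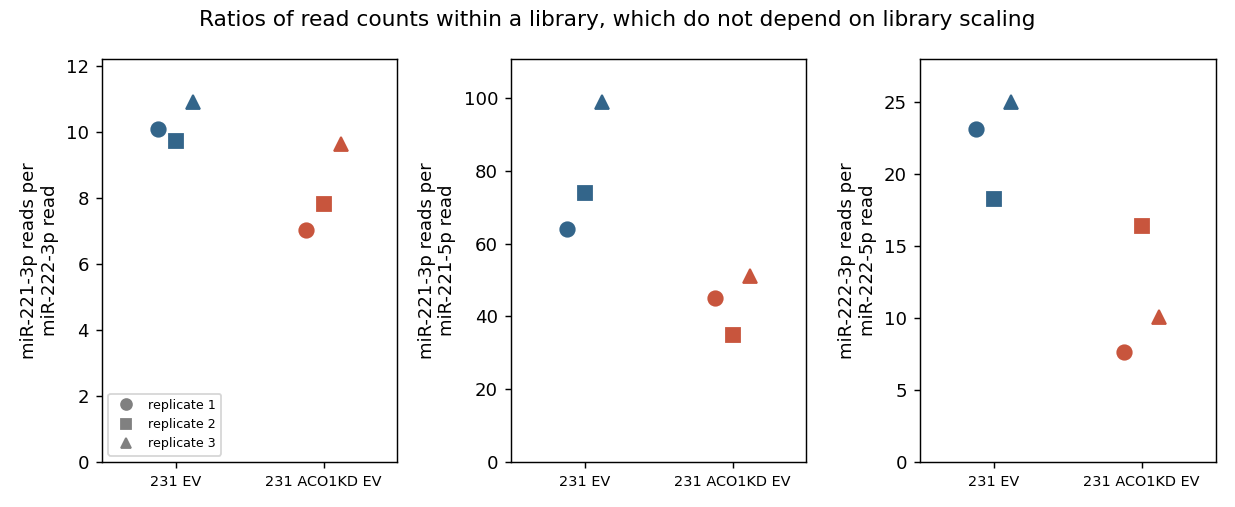
Reads of miR-221-3p for each read of miR-222-3p (left), and of the 3p arm for each read of the 5p arm in MIR221 (middle) and MIR222 (right), 1 point per library and each axis starting at 0. In all 3 panels the knockdown libraries lie below the 231 EV libraries, narrowly in the left and right panels.

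The arm ratios of MIR221 and MIR222 moved in the direction that prevailed among other hairpins. Of 55 hairpins with a mean count of at least 5 for each arm, no arm ratio passed an adjusted p of 0.05 with limma (0%), and 10 had an unadjusted p under 0.05, those of MIR221 and MIR222 included. When each ratio was written as the more abundant arm over the less abundant one, groups did not overlap in 12 of the 55 (21.8%). In all 12 of these, both cluster hairpins included, the ratio was lower in 231 ACO1KD EV, and in none was it higher. The more abundant arm was named from the pooled counts of these same 6 libraries, in which the deeper 231 EV libraries weigh more. The direction of a hairpin whose main arm differs between groups depends on this rule. This holds for miR-378a, 1 of the 12, whose mean log2 ratio of 3p to 5p was 0.88 in 231 EV and -1.12 in 231 ACO1KD EV. The median difference over all 55 was -0.25, with 38 below 0 and 17 above. In 12 of the 55, MIR221 included, the difference was as large as that of MIR221 or larger, in either direction. The knockdown libraries are also the shallower ones, and a pseudocount of 1 in place of 0.5 left 12 lower and 0 higher. At a mean count of at least 50 for each arm, which leaves out MIR221 and MIR222, 2 of 12 hairpins passed an adjusted p of 0.05 in limma, and groups did not overlap in 4, all lower. Whether depth or the lower share of a few abundant guide strands bears on this was not tested.

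**Figure D4:**
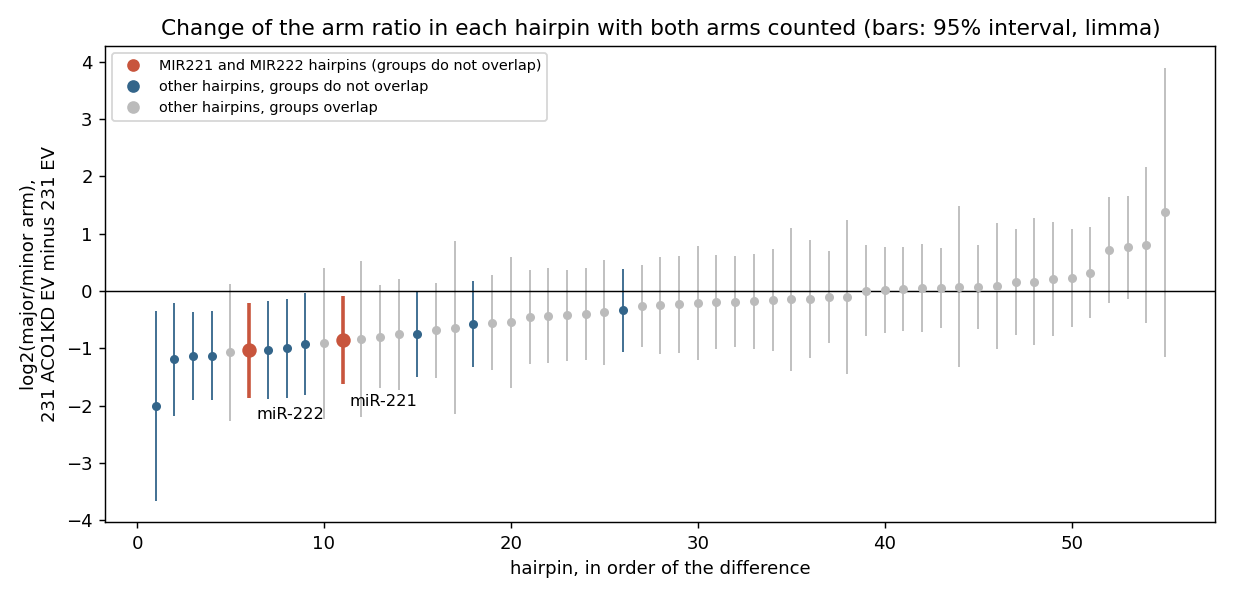
Difference of the log2 ratio of major to minor arm, 231 ACO1KD EV minus 231 EV, in each of 55 hairpins in order of size, with 95% intervals from limma. The major arm was named from the pooled counts of all 6 libraries. MIR221 (-0.86) and MIR222 (-1.04) lie in the lower part of a distribution whose median is -0.25, and each hairpin without overlap between groups is below 0.

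A sequence difference between the guide strands falls on the motif CAUUG, which the study's docking model names as the contact of miR-33a-5p with ACO1, while its site search and pull-down probes refer to the longer CAUUGC. Both motifs were searched on the RNA strand alone, after results for the cluster were known, and each CAUUG is shown in capitals for these miRNAs, whatever base follows it.

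hsa-miR-221-3p: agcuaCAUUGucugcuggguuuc
hsa-miR-222-3p: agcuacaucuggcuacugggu
hsa-miR-33a-5p: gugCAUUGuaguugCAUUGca

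miR-221-3p holds CAUUG once, at bases 6 to 10, where it overlaps the seed, and miR-33a-5p holds it 2 times, of which only 1 is the longer CAUUGC. miR-221-3p does not hold CAUUGC, and miR-222-3p and miR-222-5p hold neither motif. In the study's pull-down, a miR-33a-5p probe mutated outside CAUUGC still brought down ACO1, while a probe mutated in CAUUGC did not. The CAUUG of miR-221-3p is followed by U, as is the copy in miR-33a-5p that lies outside CAUUGC. The study lists no probe of miR-221-3p, and whether its motif binds ACO1 was not tested. RefSeq gave a mature sequence for 435 of the 517 miRNAs tested, and 18 of these (4.1%) hold CAUUG, against 1.7% of all 2370 mature names. With TMM scaling 6 of the 18 were lower and 0 higher, with a median log2 fold change of -0.50, while 18 of the other 417 were lower and 6 higher, with a median of -0.06. The 6 were miR-221-3p, miR-33a-5p, miR-103a-3p, miR-107, miR-23a-3p and miR-181b-5p, with log2 fold changes of -0.87, -1.1, -0.45, -0.75, -0.51 and -0.81. With library totals only miR-221-3p was lower and 3 were higher, and the medians were -0.15 and 0.28. Of the other 417, 6 were then lower and 37 higher. CAUUG was more frequent among abundant miRNAs, in 8 (11.8%) of the 68 with the highest mean TPM of both groups. With TMM scaling 4 of these 8 were lower and 0 higher (median -0.47). Of the other 60, 8 were lower and 5 higher (median -0.04). The counts over all 435 are therefore not free of abundance, and its part in them was not tested. The longer CAUUGC, which overlaps CAUUG and is held by 0.5% of mature names, was in 7 of the 435 (1.6%) and in no member. Of these 7, miR-33a-5p, miR-23a-3p and miR-181b-5p were lower and 0 higher with TMM scaling, and 0 were lower and 1 higher with library totals. Of the 428 without CAUUGC, 21 were lower and 6 higher with TMM scaling, and 7 were lower and 39 higher with library totals. Several of the 18 come from the same families (miR-23, miR-103 with miR-107, miR-199, miR-33 and miR-181) and share most of their sequence, and the motif was named from miR-33a-5p itself. miR-222-3p holds GGCU at bases 11 to 14, a motif known from miRNAs sorted into EVs, as do 50 of the 435 (11.5%), of which 8 were lower and 0 higher with TMM scaling. With library totals 1 of these 50 was lower and 3 were higher. Of the 385 without GGCU, 16 were lower and 6 higher with TMM scaling, and 6 were lower and 37 higher with library totals. The motif GGAG was searched too, and miR-221-3p, miR-222-3p and miR-222-5p do not hold it. It was in 32 of the 435 (7.4%), of which 4 were lower and 0 higher with TMM scaling. Of the 403 without GGAG, 20 were lower and 6 higher. Counts over motifs are descriptions of the sequences, and binding to ACO1 was not measured in these libraries. Whether any motif bears on the levels of the guide strands was not tested.

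Across the 6 libraries the guide strands had nearly the same profile, with a Pearson's r of 0.989 between their TMM-scaled log2 levels. Of 93 other miRNAs with a mean count of at least 100, those most like miR-221-3p were hsa-miR-100-5p (r = 0.997), hsa-miR-23a-3p (r = 0.997) and hsa-miR-425-5p (r = 0.995). Those most like miR-222-3p were hsa-miR-100-5p (r = 0.993), hsa-miR-425-5p (r = 0.991) and hsa-miR-21-5p (r = 0.989). All of these were lower in 231 ACO1KD EV at an adjusted p under 0.05 in the edgeR fit, with log2 fold changes of -0.89, -0.51, -0.81 and -1.44 for miR-100-5p, miR-23a-3p, miR-425-5p and miR-21-5p, and with library totals miR-23a-3p did not pass. The values share the same 6 libraries and their scaling. Both guide strands were lower in the knockdown group, so miRNAs chosen for the same profile had to be lower too. These calls are therefore not a separate result. Among all miRNAs with a mean count of at least 100, 20% (19 of 95) were lower.

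Other miRNAs with a known tie to the cluster were read from lists, which were chosen with earlier results of these data known. Of 10 miRNAs listed under oncogenic or mesenchymal in breast cancer, 5 were lower and 0 higher with TMM scaling, with a median log2 fold change of -0.49. The role of each listed miRNA was not tested, so this count describes the list and not a class with 1 function. Over all 517 tested, 6% were lower and the median was -0.03, and 20% were lower among miRNAs of mean count 100 or more, where all 5 lie. Levels in this list were uneven, and hsa-miR-31-5p, hsa-miR-155-5p and hsa-miR-10b-5p had means of 19, 72.2 and 268 TPM in 231 EV. The 3 largest changes were those of hsa-miR-146a-5p (-2.72), a regulator of NF-κB signalling, hsa-miR-21-5p (-1.44), the most abundant miRNA, and hsa-miR-138-5p (-1.0), all past an adjusted p of 0.05 by edgeR. Under library totals 4 of the 10 were lower and 1 was higher. The log2 fold change of miR-221-3p lies between that of miR-138-5p and that of miR-22-3p (-0.59), and is close to that of miR-100-5p (-0.89).

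miRNAs encoded elsewhere in the Xp11 region were not shown to differ. Of the 9 listed, 8 were tested, and 0 passed an adjusted p of 0.05 with edgeR under either scaling or with DESeq2, while 0 had an unadjusted p under 0.05 with TMM scaling and 1 with library totals. Their median log2 fold change was -0.003 with TMM scaling. Those with the most reads were hsa-miR-98-5p, of the let-7 family, at 0.09 (standard error 0.25), hsa-miR-660-5p at 0.33 (standard error 0.27) and hsa-miR-532-5p at 0.12 (standard error 0.28). Most of these are far less abundant than miR-221-3p, and none had a mean above 476 TPM in either group.

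Of 5 other miRNAs known to repress ESR1, a target they share with miR-221 and miR-222, 3 were tested and 1 was lower, hsa-miR-22-3p at -0.59, and hsa-miR-18a-5p was at 0.26 (standard error 0.31). Among the epithelial or luminal miRNAs 1 of 8 was lower, hsa-miR-205-5p at -0.93, which had 109 to 121 reads in 231 EV and 17 to 82 in 231 ACO1KD EV. Among those of blood cells and liver 2 were lower (hsa-miR-451a at -0.94 and hsa-miR-486-5p at -1.08, both of red cells) and 2 were higher (hsa-miR-150-5p at 0.72 and hsa-miR-223-3p at 0.51, both of leukocytes). With library totals none of the epithelial, Xp11 or ESR1 miRNAs passed with edgeR (1 of each list had an unadjusted p under 0.05), and of the blood and liver list 2 were lower and 4 higher. Over all 517 tested, 6% were lower and 2.51% higher with TMM scaling, and 2.51% were lower and 11.2% higher with library totals. At a mean count of at least 100 the shares with TMM scaling were 20% and 7.37%. These lists are short, and their counts describe the lists only.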

How the data were processed

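Per the labels and the paper's methods, small RNA libraries were trimmed, freed of other RNA classes by Rfam, mapped with Bowtie2 to hg38 and matched to miRBase, and further miRNAs were predicted. For each library the authors deposited read counts, not normalized, and TPM values made from those counts, without pooling replicates. How reads matching several miRNAs were counted is not given in the sources used here. Counts were compared by edgeR's quasi-likelihood test (edgeR 4.0.16, R 4.3.3) with TMM scaling over the 517 miRNAs that had reads in 3 or more libraries, with Benjamini-Hochberg adjustment. The prior degrees of freedom were infinite, so all miRNAs share 1 quasi-dispersion (biological coefficient of variation 20.8%). Ratios within a library, log2 with 0.5 added to each count, were compared by limma 3.58.1 over 55 hairpins or 12 pairs of co-transcribed guides, with mean counts of at least 5 or 10. Single values were compared by exact permutation tests. Alternatives were library totals, DESeq2 1.42.0 and its size factors, TMM without the 10 highest miRNAs, limma on log2 TPM, edgeR's robust option, other filters, a replicate block and each library left out. Totals without hsa-miR-21-5p were chosen after seeing the data. Scripts were tested on simulated data. Intervals of single libraries are 95% Wilson intervals. Named miRNAs were the members, hsa-miR-222-5p, the 3 with the most similar profile, hsa-miR-21-5p, hsa-miR-16-5p and, from each list, up to 3 called with the largest change or, with none called, the 2 of highest count. Those named for their motif, and hsa-miR-532-5p, hsa-miR-18a-5p, hsa-miR-223-3p, hsa-miR-31-5p, hsa-miR-155-5p, hsa-miR-10b-5p, hsa-miR-9-5p, hsa-miR-191-5p, hsa-miR-378a and, beside hsa-miR-138-5p, hsa-miR-22-3p, were chosen after their values were seen. Members and lists were chosen with earlier results of these data known. No column was left unused. A further list of miRNAs is not reported here.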

Additional observations from a re-analysis of the deposited data

How the results depend on the processing

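hsa-miR-221-3p was lower and past an adjusted p of 0.05 in all 18 alternatives, from -1.17 to -0.51 on the log2 scale. hsa-miR-222-3p was below 0 in all 18 and past the threshold in 7. It was not past it with library totals (-0.21), with limma on log2 TPM with pseudocounts of 1, 0.1 and 10 (-0.22 each), without a filter (-0.55) or with totals without hsa-miR-21-5p (-0.49), a setting chosen after seeing the data. Without 1 library it went from -0.70 to -0.47, and only the fit without 231 ACO1KD EV replicate 3 passed. hsa-miR-221-5p was past the threshold in none of the 18 (adjusted p of 0.552 to 0.999 by edgeR, limma or DESeq2) and turned above 0 with library totals (0.28), with limma at pseudocounts of 1, 0.1 and 10 (0.29, 0.29 and 0.28) and with totals without hsa-miR-21-5p (0.0014), and it went from -0.24 to 0.15 without 1 library. The turn with library totals follows from the shift of 0.35 in the median of all miRNAs. TPM are scaled by the same totals, so the limma fits on log2 TPM repeat that scaling choice and are not separate from it. This holds for miR-222-3p as well as for miR-221-5p. For the other turns of miR-221-5p the cause was not tested. The miR-221-3p to miR-222-3p ratio was lower in all 9 alternatives, from -0.47 to -0.24, both without 1 library, and past the threshold only without 231 ACO1KD EV replicate 3. The arm ratio of MIR221 was lower in all 8, from -0.99 to -0.68, and that of MIR222 from -1.31 to -0.80, and neither passed. A minimum count of 50 per arm could not be used for these hairpins.

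The number of miRNAs past the threshold was 44 (31 lower, 13 higher), and 71 (13, 58) with library totals, 75 (16, 59) and 76 (16, 60) with limma at pseudocounts of 1 and 10, and 57 (12, 45) at 0.1. DESeq2 gave 41 (26, 15), its size factors in edgeR 51 (30, 21), a filter at a mean TPM of 10 gave 52 (30, 22), and totals without hsa-miR-21-5p gave 50 (27, 23). Without 1 library it went from 19 to 65, and leaving out 231 EV replicates 1, 2 and 3 gave 21, 29 and 19.

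Libraries with the same replicate number were not treated as pairs, since deviations from the group means correlated at -0.0552, -0.0413 and 0.121 for numbers 1, 2 and 3 over 226 miRNAs. A replicate block left the number at 44 and gave -0.91, -0.57 and -0.07 for miR-221-3p, miR-222-3p and miR-221-5p, -0.34 for the guide ratio and -0.86 and -1.04 for the arm ratios, and changed no call. Depth limits the passenger arms most, with 22 to 62 reads of miR-221-5p and 6 to 32 of miR-222-5p per library.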
